A study of Mus musculus with 13 samples.

Results

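The circadian clock was followed through 10 of its genes, Clock, Per1, Per2, Per3, Cry1, Cry2, Nr1d1, Nr1d2, Dbp and Nfil3, in colon and ileum of tumour-bearing mice that had or had not received vancomycin. The 10 genes were taken as a given list of clock genes and matched by symbol to the array annotation, in which each had exactly 1 probe set. They are 10 of the 19505 named genes on the array. The list was chosen with earlier results of these data known, so counts of its genes against all probe sets are descriptions.

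All animals were female FVB mice with a mammary carcinoma expressing human HER2, so the mice without antibiotic carried the tumour too. Vancomycin, a glycopeptide antibiotic that acts mainly on Gram-positive bacteria and is poorly absorbed from the gut, was given at 200 mg/L in the drinking water from the age of 4 weeks onward. The other mice received no antibiotic. Tissue was taken at 9 weeks, with tumours at 150 mm3, and the sources do not say whether these weeks are age or duration. The 13 arrays comprised 4 colons without antibiotic (numbered 1, 2, 3 and 5 in the titles), 3 colons with vancomycin (11, 13 and 14), 3 ilea without antibiotic (1, 2 and 3) and 3 ilea with vancomycin (11, 13 and 14). Whether these are separate mice is not in the labels, so each p-value rests on the spread among these samples, which may be technical. Neither the hour of collection nor the light schedule is given in the sources used here, so a shift in clock phase and a change in level between groups cannot be told apart.

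The clock runs as interlocked feedback loops of transcription. CLOCK and its partner BMAL1, the product of Arntl, bind E-box sequences and drive the Per, Cry, Nr1d and Dbp genes; PER and CRY proteins then repress CLOCK and BMAL1. The REV-ERB receptors encoded by Nr1d1 and Nr1d2 repress, and ROR receptors activate, genes with ROR elements, among them Arntl, Cry1 and Nfil3. DBP activates and NFIL3 represses through a shared sequence, the D-box, which the Per genes carry. In the mouse small intestine, Nfil3 of the epithelium is known to follow the time of day and the microbiota, through a relay of immune cells, Il22 and Stat3 that acts on Nr1d1, and to favour lipid uptake.

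Upstream sequence is given for the 3 clock genes on which the tissue and vancomycin comparisons turn and that hold one of these motifs, and for Cipc, an inhibitor of CLOCK that is taken up with the other clock genes. The sequences are from RefSeq (GRCm38.p6), on the gene's own strand from 5′ to 3′, with the motif in capitals. A RefSeq promoter window, from 250 bases before the start of the gene to 50 after it, was listed for 9 of the 10 genes.
Nfil3, minus strand, chr13:52981040-52981079: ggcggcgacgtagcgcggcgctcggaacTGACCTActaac
Cry1, minus strand, chr10:85185105-85185144: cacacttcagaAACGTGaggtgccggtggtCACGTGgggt
Per3, minus strand, chr4:151044805-151044880: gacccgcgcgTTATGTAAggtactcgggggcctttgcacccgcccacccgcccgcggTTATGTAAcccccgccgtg
Cipc, plus strand, chr12:86947313-86947342: ggccgagccgggcCACGTGactggcgaaag
The capitals mark a ROR element that begins 12 bases before the start in Nfil3. In Cry1 they mark an E-box at 60 bases and an E-box variant at 79 bases before the start. Per3 had a D-box at 205 and again at 158 bases, and Cipc an E-box at 17 bases. Both strands were searched for the E-box CACGTG, its variant CACGTT, the D-box TTATGTAA or TTACGTAA, the ROR element TAGGTCA or TGGGTCA and the cyclic AMP response element TGACGTCA. Of 32851 windows of 300 bases, 7.15% held the E-box, 4.68% the variant, 1.06% the D-box, 6.45% the ROR element and 1.79% the cyclic AMP response element. Per1 also held the E-box, at 166 bases, and Cry2 and Nr1d1 held the variant, at 166 and 28 bases. The windows of Clock, Nr1d2 and Dbp held none of these letters, which describes the windows only.

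Expression values are RMA log2 values, on which a difference of 1 is nominally a doubling. A probe set's level was not read as an amount of RNA against that of another. Markers of each tissue were high in the arrays labelled as that tissue. The mean of 6 ileal enterocyte markers was 15.45 to 16.39 in ilea and 6.88 to 8.33 in colons, and that of 6 colonocyte markers 15.22 to 16.14 in colons and 10.71 to 11.13 in ilea. Ileum 11 with vancomycin stood apart from the other ilea. Its mean was 14.75 for 8 smooth muscle markers, against 13.11 to 13.79 in the others, and 10.39 for the 7 of 8 B cell markers measured, against 7.30 to 8.15. Vancomycin values in the ileum are therefore also given without it for the 10 clock genes and for the other genes named there with larger values. Some marker lists moved with vancomycin, though none of their genes passed the test in either tissue. On average over both, 1 colonocyte marker was called lower, as were 0.526% of all probe sets. In the ileum all 8 smooth muscle, 7 B cell and 6 endothelium markers measured had positive changes, with medians of 0.78, 0.65 and 0.61. Ileum 11 had the highest mean of the ilea for each of these lists. Fibroblast, nerve and glia, and adipocyte markers were all positive there too. The 6 T cell markers averaged 9.96, 8.85 and 9.14 in treated ilea and 9.85 to 10.29 in untreated ones, with a median change of -0.67. Of the 6, 3 were lower in every treated ileum than in every untreated one, against 8.34% of all probe sets. The 5 of 6 proliferation markers measured averaged 11.28 to 11.94 in treated and 12.16 to 12.24 in untreated ilea. In colons they averaged 11.41 to 12.37 with and 11.82 to 12.57 without vancomycin, with negative changes for all 5 in both tissues. The median change of all probe sets was 0.02 in both. Untreated colon 2 also stood apart, at 13.85 for the smooth muscle markers against 14.73 or more in the other untreated colons, and at 8.76 for the B cell markers against 7.79 to 8.03. The treated colons were not alike either. Treated colon 14 was the highest colon for the B cell markers, at 8.99, against 7.88 and 7.87 in treated colons 11 and 13. Treated colon 13 was the lowest treated colon for the smooth muscle markers, against 14.95 and 14.64 in treated colons 11 and 14. The part of these shifts in the results was not tested beyond leaving out arrays such as ileum 11 and untreated colon 2 singly. In bulk tissue, fewer cells of a type and less RNA per cell cannot be told apart.

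Nfil3, the D-box repressor, was lower with vancomycin in the average of both tissues, and it was lower in the colon than in the ileum with and without the antibiotic. Its level in the ileum without antibiotic was 10.58, 10.17 and 10.05, and with vancomycin 9.21, 8.86 and 9.17. Every treated ileum thus lay below every untreated one. In the colon the values were 8.96, 8.13, 8.71 and 8.61 without antibiotic and 8.20, 7.39 and 7.36 with vancomycin. Here the groups overlapped, since treated colon 11 lay above untreated colon 2. Treated colons 13 and 14 lay below 8.06, the median of the negative-control probe sets. Each comparison was a contrast in 1 limma fit of the 4 groups, with p-values adjusted by the Benjamini-Hochberg method over all 19572 named probe sets and a threshold of 0.05. The log2 change was -1.19 ± 0.25 (SE; adjusted p = 0.057) in the ileum and -0.95 ± 0.23 (adjusted p = 0.123) in the colon, so neither passed alone. Averaged over both tissues, Nfil3 fell by 1.07 ± 0.17 on the log2 scale (adjusted p = 0.0168), nominally 2.10-fold. It was the only member of the 10 past the threshold in that average, where 0.674% of all probe sets were called (0.526% as lower). At an unadjusted p under 0.05 limma gave 7 of the 10 on average, against 18.2% of all probe sets. The call was lost without treated colon 14 (adjusted p = 0.0531) and without untreated ileum 1 (adjusted p = 0.0536). With ileum 11 left out the average was -1.10 (adjusted p = 0.0149) and the change in the ileum -1.25 (adjusted p = 0.0574). In the colon alone, Nfil3 passed without treated colon 11, at -1.23 (adjusted p = 0.0369).

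**Figure D1:**
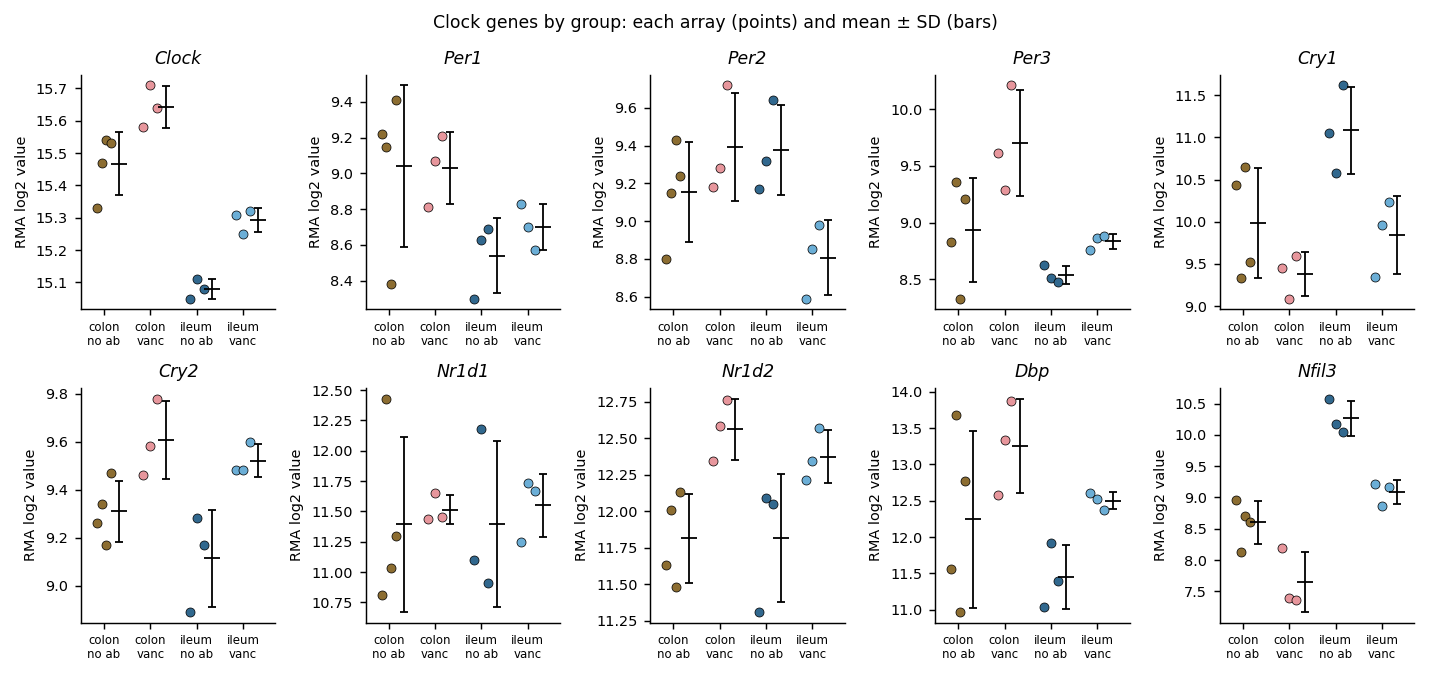
RMA log2 level of each of the 10 clock genes in every array, by tissue and treatment (ab, antibiotic; vanc, vancomycin), with 1 point per array and a bar at the group mean. Nfil3 lies at 8.86 to 9.21 in the ilea with vancomycin and 10.05 to 10.58 in those without, and Dbp spreads from 10.97 to 13.68 among the colons without antibiotic.

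With vancomycin, 0 of the 10 clock genes passed the threshold in the colon, where 0.0102% of all probe sets did, and 0 in the ileum, where 0.536% did. At an unadjusted p under 0.05, limma gave 4 of the 10 in the colon, against 15.9% of all probe sets, and 5 in the ileum, against 10.1%. The change was positive for 7 genes and negative for 3 in each tissue. Its median over the 10 genes was 0.21 in the colon and 0.19 in the ileum, with 0.02 over all probe sets in both. In the ileum, with 3 arrays against 3, the groups did not overlap for 8 of the 10 genes, against 16.9% of all probe sets. Some of these genes also varied together between arrays of 1 group, so they are not 8 separate observations. Clock, Per3, Cry2, Nr1d2 and Dbp were higher in every treated ileum than in every untreated one (5 genes, against 8.57% of all probe sets), and Per2, Cry1 and Nfil3 were lower (3 genes, against 8.34%). In the colon, with 3 arrays against 4, this held for 2 of the 10, Clock and Nr1d2, against 12.3% of all probe sets. Both were higher, as were 6.72% of all probe sets. Clock and Nr1d2 were also the 2 genes apart in the same direction in both tissues, as were 2.02% of all probe sets (0.904% as higher).

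**Figure D2:**
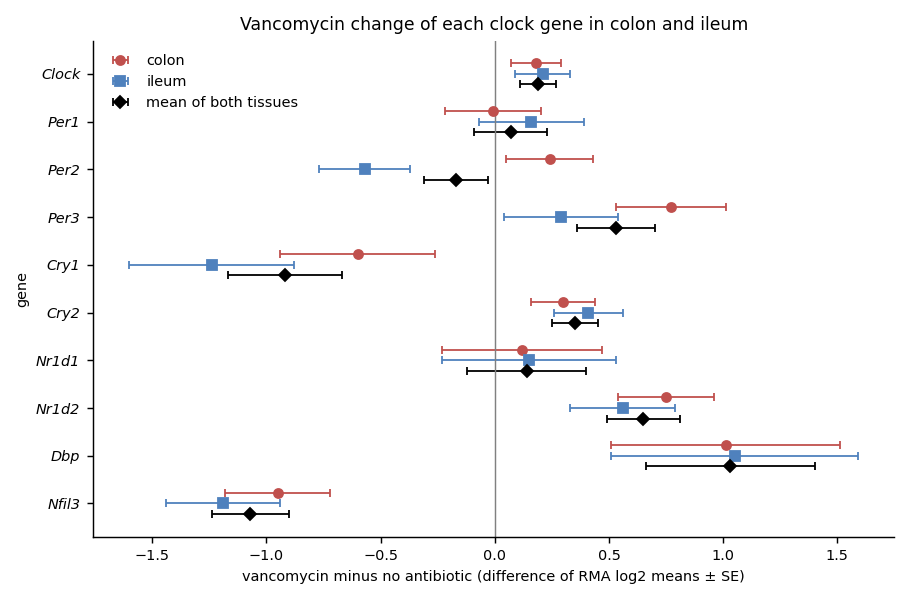
Difference of mean RMA log2 values, vancomycin minus no antibiotic, with its standard error from the limma fit, for each clock gene in the colon, in the ileum and averaged over both. Nfil3 and Cry1 lie left of 0 in both tissues, and Nr1d2 and Dbp lie right of it; the Nfil3 average of -1.07 is the one value past the threshold.

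Clock, which encodes the activator itself, had the smallest spread. Its mean over all arrays was 15.38, above that of 98.7% of named probe sets. Whether differences are compressed at values this high was not tested. Colons without antibiotic read 15.33, 15.47, 15.54 and 15.53, and those with vancomycin 15.58, 15.71 and 15.64. The ilea read 15.05, 15.11 and 15.08 without antibiotic and 15.31, 15.25 and 15.32 with it. Treated and untreated arrays were apart in both tissues, by a small step. The change was 0.18 ± 0.11 in the colon (limma adjusted p = 0.454), 0.21 ± 0.12 in the ileum (adjusted p = 0.568) and 0.19 ± 0.08 on average (adjusted p = 0.229).

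The 3 Per genes, repressors that act with CRY proteins, did not share a pattern. Per1, which also answers quickly to hormones and stress, read 9.22, 9.15, 8.38 and 9.41 in untreated and 8.81, 9.07 and 9.21 in treated colons. In the ilea it read 8.30, 8.63 and 8.69 without and 8.83, 8.70 and 8.57 with vancomycin. The groups overlapped in both tissues, with changes of -0.01 ± 0.21 and 0.16 ± 0.23. Per2, a core repressor with a strong daily rhythm in most tissues, read 9.17, 9.32 and 9.64 in untreated and 8.59, 8.85 and 8.98 in treated ilea, without overlap. In the colon it read 8.80, 9.15, 9.43 and 9.24 without and 9.18, 9.28 and 9.72 with vancomycin. Its change was -0.57 ± 0.20 in the ileum (adjusted p = 0.335) and 0.24 ± 0.19 in the colon (adjusted p = 0.558). Per3, whose printed upstream stretch holds the D-boxes and whose loss disturbs the core clock little, read 8.83, 9.36, 8.33 and 9.21 in untreated and 9.61, 9.29 and 10.21 in treated colons. Its ileal values were 8.63, 8.51 and 8.48 without and 8.76, 8.86 and 8.88 with vancomycin, close together but apart. Per3 differed by 0.77 ± 0.24 in the colon (adjusted p = 0.175) and 0.29 ± 0.25 in the ileum (adjusted p = 0.727).

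Cry1 and Cry2 encode the strongest repressors of CLOCK and BMAL1, and their changes had opposite signs. Cry1 read 11.05, 10.58 and 11.62 in untreated ilea and 9.34, 9.96 and 10.24 in treated ilea. In colons it was 10.44, 9.33, 10.65 and 9.52 without and 9.45, 9.09 and 9.60 with vancomycin, so the ilea were apart and the colons overlapped. The change was -1.24 ± 0.36 in the ileum (adjusted p = 0.201), -0.60 ± 0.34 in the colon (adjusted p = 0.39) and -0.92 ± 0.25 on average (adjusted p = 0.0953). Without ileum 11, the lowest for Cry1, the ileal change was -0.98 (adjusted p = 0.347). Cry2 moved within a narrower band, at 8.89, 9.28 and 9.17 in untreated and 9.48, 9.48 and 9.60 in treated ilea. Its colon values were 9.26, 9.34, 9.17 and 9.47 without and 9.46, 9.58 and 9.78 with vancomycin, where only treated colon 11 lay inside the untreated range. The Cry2 change was 0.41 ± 0.15 in the ileum (adjusted p = 0.351), 0.30 ± 0.14 in the colon (adjusted p = 0.311) and 0.35 ± 0.10 on average (adjusted p = 0.109).

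The REV-ERB genes, the repressors at ROR elements, gave unlike values. Nr1d2 (REV-ERB beta) read 11.63, 12.01, 11.48 and 12.13 in untreated and 12.34, 12.58 and 12.76 in treated colons. In the ilea it read 11.31, 12.09 and 12.05 without and 12.21, 12.34 and 12.57 with vancomycin. All 6 treated arrays lay above all untreated arrays of their tissue. The change was 0.75 ± 0.21 in the colon (adjusted p = 0.158), 0.56 ± 0.23 in the ileum (adjusted p = 0.424) and 0.65 ± 0.16 on average (adjusted p = 0.0743). Nr1d1 (REV-ERB alpha), the receptor in the described relay from microbes to Nfil3, read 10.81, 12.43, 11.03 and 11.30 in untreated and 11.44, 11.65 and 11.45 in treated colons. Its ileal values were 11.10, 12.18 and 10.91 without and 11.25, 11.73 and 11.67 with vancomycin. The treated values lay inside the untreated range in both tissues, and the change was 0.12 ± 0.35 in the colon (adjusted p = 0.901) and 0.15 ± 0.38 in the ileum (adjusted p = 0.93). Without untreated colon 2, the highest array, the colon value for Nr1d1 was 0.47 (adjusted p = 0.466).

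Dbp, the D-box activator and a direct E-box target with one of the widest daily swings known, varied most among untreated colons, at 11.56, 13.68, 10.97 and 12.77. Treated colons read 12.58, 13.33 and 13.87, inside or just above that span. In the ilea Dbp read 11.04, 11.92 and 11.40 without and 12.61, 12.53 and 12.37 with vancomycin, where the treated arrays lay together above the untreated ones. The change was 1.01 ± 0.50 in the colon (adjusted p = 0.339), 1.05 ± 0.54 in the ileum (adjusted p = 0.531) and 1.03 ± 0.37 on average (adjusted p = 0.171). It was as large in the ileum without ileum 11, at 1.00. Left without untreated colon 2, the colon value was 1.49 (adjusted p = 0.191). Dbp and Nfil3, which act on the same D-box sequence with opposite effect, thus had changes of opposite sign, and of the pair only the Nfil3 average passed the test.

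The difference between the tissues, colon change minus ileum change, was tested directly. None of the 10 genes passed (0.189% of all probe sets did), and 1 had an unadjusted p under 0.05 in limma, against 8.01% of all probe sets. That gene was Per2, at 0.81 ± 0.27 (adjusted p = 0.424). For Cry1 the difference was 0.63 ± 0.49, for Per3 0.48 ± 0.35 and for Nfil3 0.23 ± 0.34, each below 2 standard errors. Dbp, Nr1d1 and Clock had values of -0.03 ± 0.73, -0.03 ± 0.51 and -0.04 ± 0.16. For Dbp the standard error alone was 0.73, so a difference of that size between the tissues was not detectable with these arrays.

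Array by array, the 3 treated ilea were nearly alike in the clock genes. Ileum 11 and ileum 13 each had 6 genes above and 3 below the range of the untreated ilea, and ileum 14 had 5 above and 3 below. Nr1d1 was inside the range in each of the 3, and Per1 in ileum 14. Although ileum 11 stood apart in its cell markers, the changes without it were close to those with it for Clock (0.20), Per3 (0.33), Cry2 (0.43), Nr1d2 (0.64) and Per2 (-0.46), whereas Nr1d1 moved to 0.30 and Per1 to 0.09, all with an adjusted p of 0.37 or more in limma. Over all probe sets, 30.7% to 35.3% lay above and 27.2% to 32.7% below the range of the untreated ilea. The counts of clock genes below it were thus near those of all probe sets. The treated colons were less alike. Colon 11 had Clock, Per3 and Nr1d2 above the untreated range and no gene below, against 19.8% of all probe sets above and 18.7% below. Colon 13 had Clock, Cry2 and Nr1d2 above and Cry1 and Nfil3 below, against 25.2% above and 22.8% below, so its counts were near those of all probe sets. Colon 14 had Clock, Per2, Per3, Cry2, Nr1d2 and Dbp above and Nfil3 below, against 28.8% of all probe sets above and 25.6% below. In colon 14 all 6 of these were at their highest of the 7 colons except Clock, which was highest in colon 13.

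**Figure D3:**
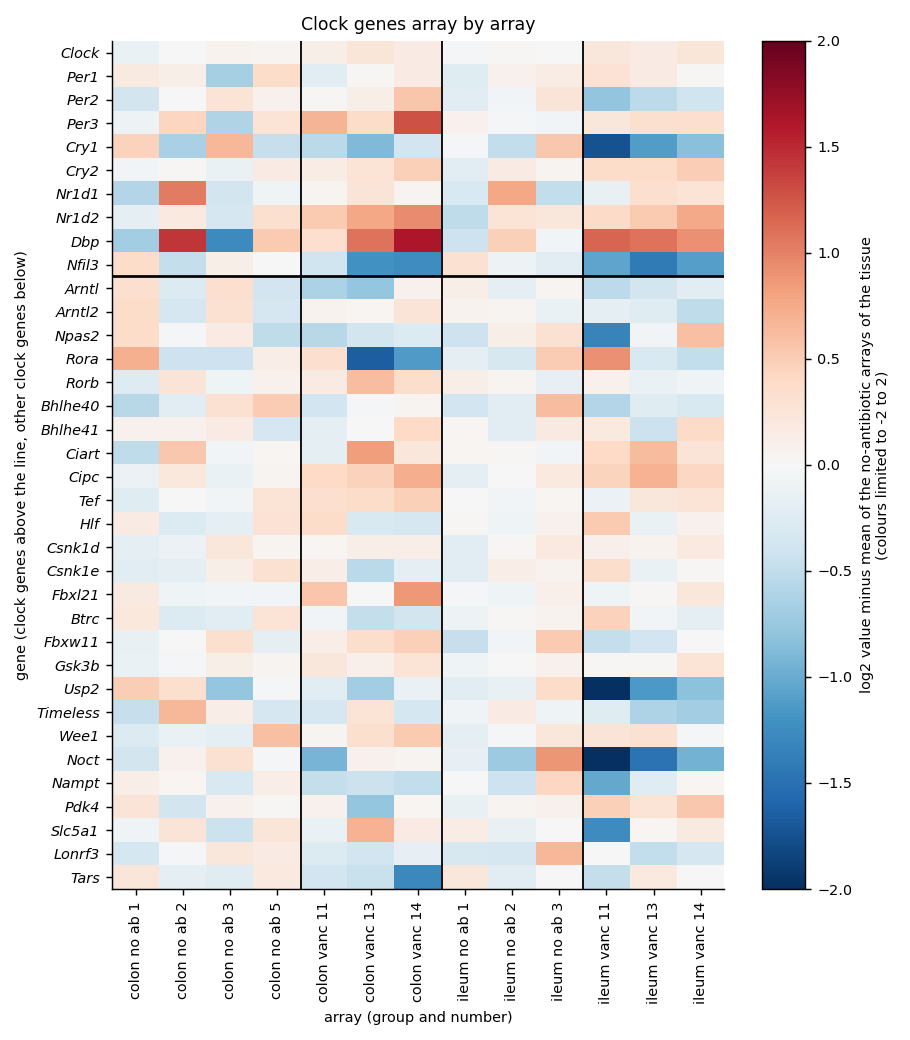
RMA log2 value of each clock gene in each of the 13 arrays minus the mean of the arrays without antibiotic of the same tissue, on a colour scale centred at 0. The treated ilea share 1 pattern, with Cry1, Nfil3 and Per2 below 0 and Dbp, Nr1d2 and Cry2 above, while treated colon 11 differs from treated colon 14 and untreated colon 2 from untreated colon 3.

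Without antibiotic, 3 of the 10 clock genes differed between colon and ileum, against 20.5% of all probe sets. Nfil3 was 1.66 ± 0.23 log2 units lower in the colon than in the ileum (colon minus ileum -1.66, limma adjusted p = 0.000135), nominally 3.17-fold. Cry1 was lower in the colon too, at -1.10 ± 0.34 (adjusted p = 0.0313), and Clock was higher, at 0.39 ± 0.11 (adjusted p = 0.0228). The Nfil3 groups did not overlap, with a highest colon of 8.96 and a lowest ileum of 10.05, and neither did those of Clock, which makes 2 of the 10, against 32.2% of all probe sets. For Cry1, colon 3 at 10.65 lay above ileum 2 at 10.58. Leaving out any 1 ileum ended the call for Clock (adjusted p up to 0.0788), as did leaving out colon 5 (adjusted p = 0.05), median centring (adjusted p = 0.075) and the title number as a fixed replicate block (adjusted p = 0.103). For Cry1 it ended without colon 2 (adjusted p = 0.0879), colon 5 (0.0891), ileum 1 (0.0803) or ileum 3 (0.168), and Per1 passed without colon 3 (0.72, adjusted p = 0.00581). Nfil3 kept its call throughout, at -1.78 to -1.51.

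With vancomycin, 2 of the 10 differed between the tissues, against 15.1% of all probe sets (1 higher in the colon, against 7.45%, and 1 lower, against 7.67%). Nfil3 was again lower in the colon, at -1.43 ± 0.25 (adjusted p = 0.00116), and Per3 was higher, at 0.87 ± 0.25 (adjusted p = 0.0324). The Per3 call rested on single arrays: its adjusted p was 0.0557 to 0.148 without any 1 of treated colons 11 and 14 or the treated ilea. Over the 4 groups the Nfil3 means ran from 10.27 ± 0.28 (SD, n = 3) in untreated ileum through 9.08 ± 0.19 (n = 3) in treated ileum and 8.60 ± 0.35 (n = 4) in untreated colon to 7.65 ± 0.48 (n = 3) in treated colon. The middle pair overlapped, since untreated colon 1 at 8.96 lay above treated ileum 13 at 8.86. Per2 was 0.59 ± 0.20 higher in treated colon (adjusted p = 0.0648; 0.0422 with the title number as a random replicate block, 0.023 as a fixed block and 0.0426 with array weights), against -0.22 ± 0.19 without antibiotic. Nr1d1 and Nr1d2 had tissue values of 0.00 ± 0.35 and 0.00 ± 0.21 without antibiotic and of -0.04 ± 0.38 and 0.19 ± 0.23 with it. Colon and ileum also differ in their cells. The 8 smooth muscle markers averaged 14.64 or more in 5 of 7 colons and 13.79 or less in 5 of 6 ilea, and the 5 of 6 adipocyte markers measured 7.64 to 9.15 in colons and 10.25 to 11.91 in ilea; the part of either in these differences was not tested.

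**Figure D4:**
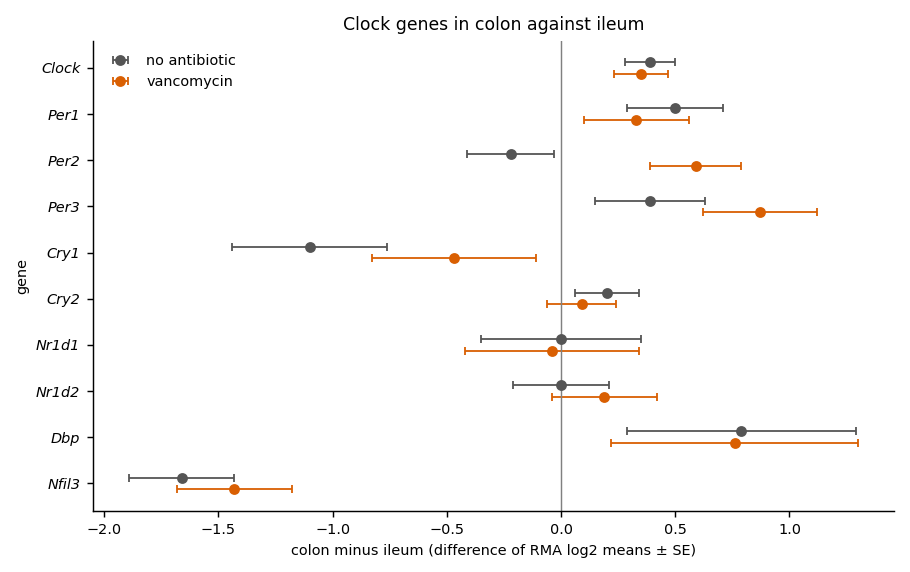
Difference of mean RMA log2 values, colon minus ileum, with its standard error from the limma fit, for each clock gene without antibiotic and with vancomycin. Nfil3 lies far left at -1.66 and -1.43, Clock lies right of 0 in both, and Per2 lies at -0.22 without antibiotic and 0.59 with vancomycin.

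The clock genes also varied between arrays of 1 group, and unequally. The SD within groups was 0.80 for Dbp, larger than for 99.0% of all probe sets, 0.54 for Nr1d1 (larger than for 95.5%) and 0.52 for Cry1 (94.7%). At the other end, Clock had 0.07, larger than for 0.163%, and Cry2 0.15, larger than for 10.7%; the median of all probe sets was 0.24. Most of the Dbp spread came from the untreated colons, whose values spanned 2.71, against 1.29 in treated colons, 0.88 in untreated ilea and 0.24 in treated ilea. The same colons stood at the ends for several genes. Untreated colon 2 was highest of the 4 for Dbp and Nr1d1 and lowest for Cry1 and Nfil3, and it is the untreated colon whose smooth muscle and B cell markers stood apart. Untreated colon 3 was lowest for Dbp, Per1, Per3, Cry2 and Nr1d2 and highest for Cry1, Per2 and Clock.

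To describe this joint variation, each array's deviation from its group mean was correlated between genes over the 13 arrays. These points share array, tissue piece and an unknown hour, and the coefficients are a description. Cry2 and Nr1d2 ran closest together, with r = 0.94. Dbp ran with Per3 (r = 0.75), Nr1d1 (0.72), Nr1d2 (0.72), Per1 (0.69) and Cry2 (0.67), and hardly with Per2 (0.15). It ran against Nfil3 (r = -0.74) and Cry1 (r = -0.71). Targets of CLOCK and BMAL1 thus did not all run together, since Per2 and Cry1 are such targets too. Cry1 in turn ran with Arntl (r = 0.78), like it a gene with ROR elements. Nfil3, another such gene, had r = 0.29 with Cry1 and 0.13 with Arntl. Nr1d2 ran against Nfil3 (r = -0.66). A wider comparison took 9313 named genes with an SD within groups at or above the median, leaving out predicted genes. Those whose deviations were most like those of Dbp were Zfp608 (r = 0.88), Mcpt4 (0.87), Ly6g6e (0.86), Dapp1 (0.84) and Dclre1a (0.83), and the most opposite Bag2 (r = -0.91). For Nfil3 the most like were Kank2 (r = 0.91), Sptssb (0.90), Retnlb (0.90), Scarb2 (0.90) and Arhgap20 (0.90), and the most opposite Slc6a20a (r = -0.92). Nr1d1 was most like Spopl (r = 0.83), Capn13 (0.82), Zfp618 (0.82), Mnd1 (0.81) and Lsr (0.81), and most opposite to Pilrb2 (r = -0.86). No clock gene of the lists was among these 15 most like genes, and with 13 arrays and 9313 genes the coefficients were not tested. Clock, Cry2 and other listed genes with an SD below the median, such as Cipc and Tef, could not have been among them.

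**Figure D5:**
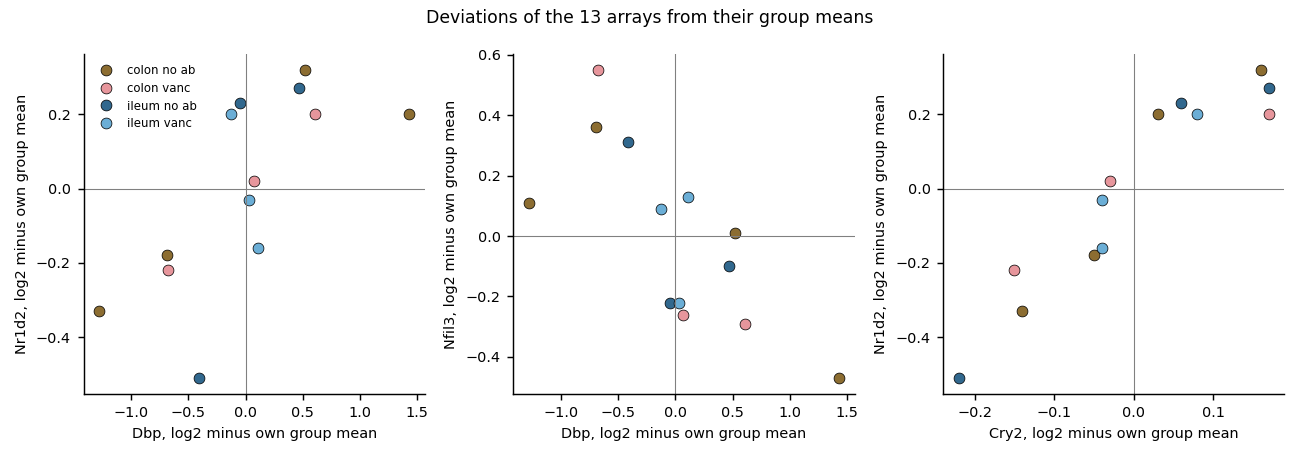
Each of the 13 arrays as a point, placed by its RMA log2 deviation from the mean of its own group (ab, antibiotic; vanc, vancomycin) for 3 pairs of clock genes. Nr1d2 is higher where Dbp is higher (r = 0.72), Nfil3 is lower where Dbp is higher (r = -0.74), and Nr1d2 and Cry2 lie near a line (r = 0.94).

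Beyond the 10 genes, 26 of 28 other listed clock genes had a probe set. With vancomycin 0 passed in the colon and 0 in the ileum, and 1 passed on average. At an unadjusted p under 0.05 limma gave 5 of 26 in the colon and 3 of 26 in the ileum, near the 15.9% and 10.1% of all probe sets. That was Cipc, whose product inhibits CLOCK. It read 13.49, 13.82, 13.47 and 13.66 in untreated and 14.01, 14.07 and 14.33 in treated colons, and 12.27, 12.47 and 12.65 in untreated and 12.91, 13.16 and 12.88 in treated ilea. Treated and untreated arrays were apart in both tissues. Cipc rose by 0.52 ± 0.11 on average (adjusted p = 0.0479), a call at the edge of the threshold that ended without any 1 of 10 arrays, colons 1, 2, 5, 13 and 14 and ilea 1, 2, 3, 13 and 14 (adjusted p = 0.0552 to 0.121). It also ended with median centring (adjusted p = 0.0637) and with the title number as a random replicate block (adjusted p = 0.0707).

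No other listed clock gene passed with vancomycin in either tissue. Among activators, Arntl, which encodes the partner of CLOCK, had a value of -0.45 ± 0.23 in the colon (adjusted p = 0.347) and -0.37 ± 0.24 in the ileum (adjusted p = 0.623). Among repressors Ciart had 0.29 ± 0.25 and 0.43 ± 0.26. The D-box activators Tef and Hlf, relatives of Dbp, had 0.39 ± 0.15 and -0.09 ± 0.21 in the colon and 0.13 ± 0.16 and 0.15 ± 0.22 in the ileum. Tef and Hlf read below 8.06, the median of the negative-control probe sets, in every array. So did Ciart in every array but treated colon 13, at 8.34. Larger values stood in the ileum for Usp2, a deubiquitinase of clock proteins, at -1.37 ± 0.35 (adjusted p = 0.137), and for Noct, a rhythmic output that encodes Nocturnin, at -1.65 ± 0.43 (adjusted p = 0.141). Both were lowest in ileum 11, at 9.47 and 5.63, and without it the values were -0.98 (adjusted p = 0.246) and -1.22 (adjusted p = 0.25). Without it Arntl had -0.30, Ciart 0.44, Tef 0.25 and Hlf -0.03, so the sign turned for Hlf. Tars had -0.70 ± 0.23 in the colon (limma adjusted p = 0.193) and Nampt -0.47 ± 0.24 (adjusted p = 0.347). Rorb had 0.38 ± 0.16 there (adjusted p = 0.262), Fbxl21 0.47 ± 0.18 (adjusted p = 0.23) and Btrc -0.30 ± 0.19 (adjusted p = 0.446). Timeless averaged 7.50 in untreated and 6.98 in treated ilea, and Pdk4 5.59 and 6.02. Without ileum 11 their changes were -0.65 and 0.41. Between the tissues without antibiotic, Rorb and Cipc were higher in the colon, and Usp2 (-3.30 ± 0.33), Noct (-1.39 ± 0.40) and the glucose transporter gene Slc5a1 (-3.34 ± 0.31) were lower, which makes 5 of 26. Under vancomycin 5 of 26 also passed, with Arntl2 in place of Noct. Both counts were near the share of all probe sets, 20.5% without antibiotic and 15.1% under vancomycin. Rorb and Arntl2 read below 8.06 in every array, and Noct in every array but untreated ileum 3, at 9.04.

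A further 3 short lists bear on what is known to act on these genes. Their counts at an unadjusted p under 0.05, given for the colon and then the ileum, stand against 15.9% and 10.1% of all probe sets. Of 6 genes of the relay from microbes to Nfil3, 0 passed with vancomycin in either tissue, with 0 and 1 at an unadjusted p under 0.05. Stat3, the transcription factor of that relay, read 13.10, 12.51 and 13.17 in untreated and 12.54, 12.27 and 12.36 in treated ilea, a change of -0.54 ± 0.20 (adjusted p = 0.379), against 0.01 ± 0.19 in the colon. Il23a had 0.40 ± 0.22 in the colon and -0.01 ± 0.24 in the ileum, and Il22 had 0.22 ± 0.14 and 0.21 ± 0.15. Of 7 genes that answer to glucocorticoids, hormones that also set peripheral clocks, 0 passed, with 3 and 2 at an unadjusted p under 0.05. Fkbp5 had 0.67 ± 0.24 in the colon (adjusted p = 0.21) and 0.58 ± 0.25 in the ileum (adjusted p = 0.461). Hsd11b2, which inactivates glucocorticoids, had -1.12 ± 0.35 in the colon (adjusted p = 0.178) and 0.97 ± 0.38 in the ileum (adjusted p = 0.396). Of 8 immediate-early genes, which respond within minutes to stimulation or handling, 0 passed, with 0 and 2 at an unadjusted p under 0.05. Atf3 had -0.71 ± 0.28 in the ileum (adjusted p = 0.396). Without ileum 11 the ileal values were -0.61 for Stat3, 0.29 for Il22, 0.09 for Il23a (which turned sign), 0.58 for Fkbp5, 1.27 for Hsd11b2 and -0.58 for Atf3, each with a limma adjusted p of 0.206 or more. Egr1 stood at 11.91 in ileum 11 against 8.48 and 8.06 in the other treated ilea.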

How the data were processed

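Per the labels' protocols, biotin-labelled RNA of 13 samples was put on 13 Affymetrix arrays. The authors deposited a log2 value per probe set and array; the submitters' processing notes name RMA, and Expression Console 1.4.1.46 from Affymetrix. They ran from 3.01 to 18.25, with array medians of 7.98 to 8.14. Of the named probe sets, 256 held a value above 16, so a fold is nominal. The median of 5222 negative-control probe sets was 8.06, so no gene is called absent.

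Of 28846 probe sets, 19572 had 1 gene symbol, 0 had several and 9274 had none. All 19572 matched a RefSeq table (GRCm38.p6) by Entrez identifier, and 0 symbols changed. A model of 4 group means was fitted to the 13 arrays with lmFit and eBayes (limma 3.58.1 under R 4.3.3, 9 residual degrees of freedom), with contrasts for each comparison and Benjamini-Hochberg adjustment over the 19572 probe sets. The steps were tested on simulated data. The number of arrays limits the precision.

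All 10 members were named. The other clock genes were named where they passed the threshold, or among the 2 smallest p-values of their list in the vancomycin contrast of either tissue; the 3 short lists give up to 3 genes by smallest p. The members, lists and rules were chosen with earlier results of these data known. Per-list medians and counts are descriptions, and no test was made over a list.

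Same-numbered colon and ileum arrays might come from 1 mouse. The correlation of their deviations from the group means was 0.075, 0.03, -0.016, 0.236, 0.176 and 0.107 for numbers 1, 2, 3, 11, 13 and 14, not above 0.1 in every pair, so the numbers were not taken to pair the arrays. Alternatives were a fit of the compared groups alone, array weights, the number as a block, leaving out the dimmest probe sets, median centring, a further quantile normalization, a trended robust eBayes, and leaving out arrays singly or by number.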

Additional observations from a re-analysis of the deposited data

Results flagged for a closer look

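Of 57 clock and related genes checked in the 4 colons without antibiotic, 6 had 1 array far from the other 3 by Dixon's criterion, which chance meets in about 1 in 20 groups, and none of these was among the 10 clock genes followed above. Bhlhe41, a repressor of CLOCK and BMAL1, stood low in colon 5, at 5.29 against 5.72 to 5.79, and Wee1, a rhythmic cell cycle kinase gene, stood high there, at 11.87 against 11.13 or less in the others. Fbxl21 was high in colon 1, at 7.59 against 7.33 to 7.36, and Fosb low, at 8.05 against 8.63 to 8.73. Bhlhe41 and Fbxl21 read below 8.06, the median of the negative-control probe sets, in all 4 of these colons. Of the genes that answer to glucocorticoids, Fkbp5 was high in colon 3, at 11.14 against 10.27 to 10.37, and Sgk1 low in colon 2, at 9.91 against 11.28 to 11.43. Colons 2 and 3 were also the arrays at the ends of the Dbp range, at 13.68 and 10.97.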

How the results depend on the processing

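Counts of the 10 clock genes past the threshold were small and moved with the processing. With vancomycin in the ileum, where 0 passed, 2 passed with array weights (Cry1 and Nfil3) and 1 with median centring (Nfil3). On average over the tissues, where 1 passed, 4 passed with array weights, 2 with a further quantile normalization and 2 without both arrays numbered 11, and 0 without both arrays numbered 1, 3, 13 or 14, a setting chosen after seeing the data. Between treated colon and ileum, where 2 passed, 1 passed in a fit of those groups alone, 4 with array weights and 4 with the number as a random replicate block (Clock, Nfil3, Per2 and Per3). Leaving out single arrays gave 0 to 1 in the colon, 0 to 1 on average, 1 to 4 between untreated tissues and 1 to 2 between treated tissues. Over all probe sets such omissions gave 0 to 217 calls in the colon (2 with all arrays), 40 to 172 in the ileum (105) and 23 to 281 on average (132).

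The numbers were not taken as a pairing. As a random block (correlation 0.097) they left 0, 0, 0, 1 and 3 calls in the other 5 comparisons, and as a fixed block 0 for the difference, 2 between untreated and 3 between treated tissues. Within each treatment, colons 1, 11, 13 and 14 correlated best with the ileum of their own number. Colon 2 was slightly closer to ileum 1 (0.036) than to ileum 2 (0.03). Colon 3 was closer to ileum 2 (0.055) than to ileum 3 (-0.016). These values do not settle whether the numbers mark mice.

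Signs turned only for values near 0 or with wide errors. In the colon Per1 was 0.02 with centring and 0.09 with quantiles. In the difference between tissues, Clock was 0.02 with array weights, 0.01 with centring and 0.00 without number 11; Per1 was 0.01 without number 1 or 11; Nr1d1 was 0.02 with centring, 0.01 with quantiles, 0.09 without number 3 and 0.06 without number 14; Nr1d2 was -0.04 without number 3. Dbp there was 0.14 with the fixed replicate block, 0.01 with centring or quantiles, 0.21 without number 2 and 0.36 without number 11. Nr1d1 was -0.03 and -0.04 on average without number 1 or 3. Between untreated tissues it was 0.05 with array weights, 0.03 with the fixed block and 0.05 with quantiles, Nr1d2 was 0.07 with quantiles, and between treated tissues Nr1d1 was 0.06 with quantiles. Leaving out single arrays, the ranges that crossed or reached 0 were -0.07 to 0.47 (Nr1d1) and -0.23 to 0.11 (Per1) in the colon, -0.09 to 0.55 (Nr1d1) in the ileum and -0.04 to 0.14 (Per1) on average. For the difference they were -0.20 to 0.00 (Cry2), -0.46 to 0.44 (Dbp), -0.04 to 0.38 (Nfil3) and -0.42 to 0.31 (Nr1d1). Between untreated tissues they were -0.35 to 0.39 (Nr1d1) and -0.26 to 0.13 (Nr1d2), and between treated tissues 0.00 to 0.16 (Cry2) and -0.19 to 0.05 (Nr1d1). The cause was not tested for any of these. The lowest-mean probe set of a gene could not be tried, since each of the 10 genes has 1. The Nfil3 change was negative in each tissue under every alternative run.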
